A study of Mus musculus with 10 samples.

Results

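Interferon response genes are the genes that cells switch on after an interferon signal, and 44 of them were followed here across normal and leukaemia-prone mouse bone marrow. They were taken by symbol from a list of known members of the programme, and 43 of the 44 were among the 16771 genes measured (Mx2 was not in the tables used here). C57BL/6 mouse marrow gave 10 RNA-seq libraries, which form 5 groups with 2 biological replicates each. Of these, 4 groups were haematopoietic stem and progenitor cells (HSPC), the cells left after magnetic removal of those with mature lineage markers. The wild-type (WT) group carried no mutant allele. Npm1c mice had the genotype Npm1flox-cA/+;Mx1-Cre+, a conditional mutant allele of the nucleolar chaperone gene Npm1 recombined by Cre. Flt3-ITD mice, Flt3ITD/+, carried an internal tandem duplication in the receptor tyrosine kinase gene Flt3. Double mutant mice, Npm1flox-cA/+;Flt3ITD/+;Mx1-Cre+, carried both alleles and Cre. The fifth group was WT neutrophils from the marrow. Npm1 and Flt3 mutations occur together in acute myeloid leukaemia.

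Type I interferons bind the receptor made of Ifnar1 and Ifnar2, which signals through the kinases Jak1 and Tyk2 to a transcription factor complex that holds Stat2 and Irf9. That factor binds the interferon-stimulated response element (ISRE) in the promoters of its target genes, many of which encode antiviral proteins. In bone marrow the programme is known for its effect on stem cell dormancy and cycling, and dendritic cells and macrophages are known for strong expression of it. Mx1-Cre is itself driven by an interferon-inducible promoter, that of Mx1, and is commonly switched on by injecting an interferon inducer. The sources used here do not say whether or when an inducer was injected, nor how old or of which sex the animals were. Since no group carried Mx1-Cre without the Npm1 allele, an effect of the allele and an effect of Cre or its induction cannot be told apart.

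Levels below are RPKM, reads normalised to gene length and library total, divided by a size factor per library so that the median gene is level across libraries (scaled RPKM). Between 60.9% and 80.8% of the 40783015 to 57824373 reads behind each library fell on listed genes. The fewest reads behind any member in a library were 7, for Ifit3 in Npm1c replicate 1. The values of Npm1 and Flt3 sum over their alleles and so cannot check the labels. Npm1 stood at 288 and 285.5 scaled RPKM in WT HSPC and at 188 and 184 in the double mutant. Flt3 stood at 5.33 and 5.25 in WT HSPC and at 56.9 and 57.2 in the double mutant. The libraries labelled double mutant HSPC held less of the progenitor markers. The sum of 8 of them (Kit, Cd34, Myb and others) was 103 in both WT HSPC libraries and 33.7 to 34.4 here. Log2 changes of the 6 tested, against WT HSPC, ran from -0.38 (Kit) to -2.10 (Myb). Conventional dendritic cell markers (8 genes, Cd74, Itgax, Xcr1, Flt3 and others) here summed to 2622 to 2623, against 24.8 to 25.0 in WT HSPC. Y-linked transcripts were present in 1 of the 2 Npm1c and 1 of the 2 Flt3-ITD libraries and near 0 in the other 8. In such bulk RNA, more cells of a type and more RNA per cell cannot be told apart.

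The promoters of several members carry the letters of the ISRE. RefSeq start sites (GRCm38.p6) were matched for 34 of the 44 members, and the 250 bases before each start were searched on both strands. The letters searched were GAAA, any 2 bases and GAAA again for the ISRE (TTTC, any 2 bases and TTTC on the other strand), and TTCNNNGAA for the interferon gamma-activated site (GAS); the 2 motifs may overlap. An ISRE was found in 14 of the 34 members, 41.2%, against 936 of all 27025 genes with a listed promoter, 3.46%. A GAS was found in 7 of the 34 members, 20.6%, against 8.13% of those 27025 genes. The stretches below come from some of the 14 members with an ISRE, all higher in the double mutant than in WT HSPC. The size of that change did not decide which were printed. Those not printed include Gbp7 (log2 change 0.18) and Igtp (0.30), but also Stat2 (2.16), Gbp2 (2.04) and Rsad2 (2.00). Of those printed, Bst2 changed by 1.80 and Ifit1 by 0.76. Each stretch is 80 bases, read 5′ to 3′ on the strand of the gene, and capitals mark the ISRE.
Isg15: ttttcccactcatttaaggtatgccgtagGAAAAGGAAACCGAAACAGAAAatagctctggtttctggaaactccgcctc
Ifit1: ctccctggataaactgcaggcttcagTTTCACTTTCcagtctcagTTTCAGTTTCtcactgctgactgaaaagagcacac
Ifit3: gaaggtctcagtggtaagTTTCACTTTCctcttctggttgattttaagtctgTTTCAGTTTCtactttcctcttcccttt
Oas3: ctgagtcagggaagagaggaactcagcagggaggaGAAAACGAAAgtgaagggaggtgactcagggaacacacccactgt
Oas1a: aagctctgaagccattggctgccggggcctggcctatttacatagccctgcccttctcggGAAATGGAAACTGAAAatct
Trim30a: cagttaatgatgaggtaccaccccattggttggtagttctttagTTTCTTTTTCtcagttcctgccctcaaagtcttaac
Bst2: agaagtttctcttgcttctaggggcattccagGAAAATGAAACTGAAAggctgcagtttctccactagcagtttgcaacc

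These stretches lie at chr4:156200846-156200925 (minus strand) for Isg15, chr19:34640759-34640838 (plus) for Ifit1 and chr19:34583355-34583434 (plus) for Ifit3. Those of Oas3 and Oas1a lie at chr5:120777690-120777769 and chr5:120907526-120907605, both on the minus strand. Trim30a lies at chr7:104465194-104465273 and Bst2 at chr8:71537555-71537634, both on the minus strand. In Isg15, 3 overlapping copies run from 78 to 57 bases before the start. Ifit1 and Ifit3 each hold 2 separate copies in the reverse orientation. In Bst2 the 2 ISRE copies overlap each other and the first of them overlaps a GAS, TTCCAGGAA. The other 7 members with an ISRE in this window were Gbp2, Gbp3, Gbp7, Igtp, Irgm1, Rsad2 and Stat2. These are matches of letters, not tested sites. Levels of the 14 members with a match and the 20 without are set side by side further on.

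In the double mutant nearly the whole programme stood higher than in WT HSPC. Of the 43 members tested, 42 rose and 0 fell, while 38.9% of all 9967 genes tested rose and 38.4% fell. The median log2 change of the members was 1.64, against 0.00 for all genes. Cmpk2, a mitochondrial nucleotide kinase gene, was the exception at -0.14. Both double mutant libraries lay above all 6 other HSPC libraries for 38 of the 43 members, and for 38.8% of all genes; the 5 members that overlapped were Cmpk2, Gbp3, Gbp7, Igtp and Trim25. A total of 6 members (Ifit3, Mx1, Oas2, Oasl2, Ifi44 and Zbp1) reached the minimum level for testing only because of the double mutant and so had to differ; without them, 36 of 37 rose and 0 fell. On the deposited RPKM scale, where the median gene moved by -0.34, 36 of 42 rose and 1 fell (23.9% and 58.95% of all genes). After quantile normalization, where the median gene moved by -0.21, 37 rose and 1 fell (29.5% and 53.3%). Markers of other cells moved with this result: 8 of 8 conventional dendritic cell markers and 9 of 12 monocyte and macrophage markers were higher in the double mutant, 1 of the latter (F13a1, -2.45) was lower, and 6 of 6 tested progenitor markers were lower. Some of these markers were tested only because the double mutant was high and so had to differ. Without them, 6 of 6 conventional dendritic cell markers were higher, and of 7 monocyte and macrophage markers 4 were higher and 1 lower. The summed monocyte and macrophage markers went from 134 in both WT libraries to 927 to 930. The part of these markers in the result was not tested. Of 11 neutrophil markers 0 were higher and 1 was lower (Cxcr2), and their sum was 57.3 to 75.4 in WT HSPC and 115 to 134 in the double mutant.

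**Figure D1:**
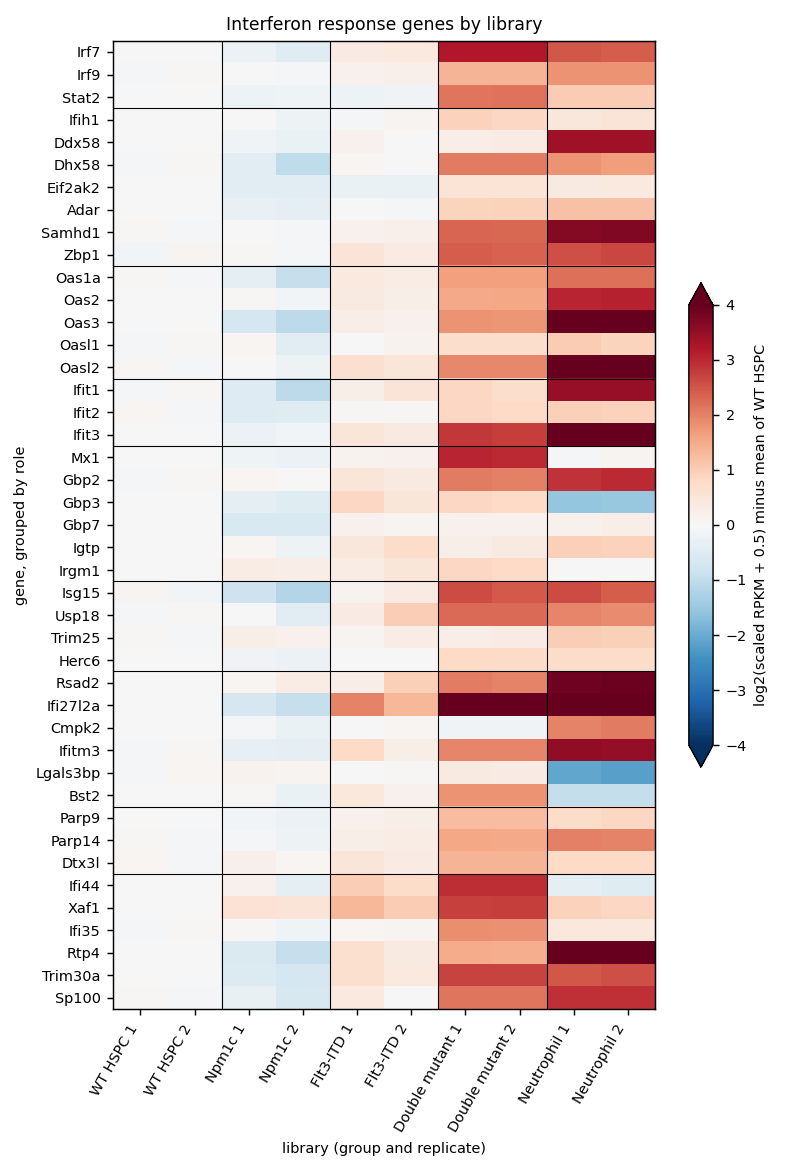
Log2(scaled RPKM + 0.5) of the 43 interferon response genes (rows, grouped by role from signalling factors at the top to other inducible genes at the bottom) in each of the 10 libraries (columns), minus the mean of the 2 WT HSPC libraries; red is higher, blue lower, and the colour scale ends at 4 in either direction. The double mutant columns are red for nearly all rows except Cmpk2, the Npm1c columns are mostly pale blue, and the neutrophil columns mix dark red (Oas3, Ifit3, Rtp4) with blue (Lgals3bp, Gbp3, Bst2).

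Among the signalling factors, Irf7, the transcription factor that amplifies interferon production, measured 1.44 scaled RPKM in each WT HSPC library. It measured 1.16 and 0.872 in Npm1c cells, 1.91 and 2.06 in Flt3-ITD, 17.5 and 17.3 in the double mutant, and 10.4 and 9.84 in neutrophils. The double mutant libraries stood far above all others, and the Npm1c libraries below all others. Irf7 rose by 3.20 ± 0.089 (log2 change ± SE, limma adjusted p = 1.43e-07) in the double mutant. Stat2 measured 2.56 and 2.60 in WT HSPC, 2.19 and 2.25 in Npm1c cells, 2.15 and 2.27 in Flt3-ITD, 12.99 and 13.5 in the double mutant, and 5.75 and 5.72 in neutrophils. Its single mutant libraries overlapped each other, all of them below WT. Irf9, the DNA-binding partner of Stat2, measured 4.35 and 4.68 in WT HSPC, 4.49 and 4.38 in Npm1c cells, 5.09 and 5.31 in Flt3-ITD, 12.4 and 12.3 in the double mutant, and 16.8 and 17.0 in neutrophils. WT and Npm1c overlapped for Irf9, so of the 3 factors Irf7 alone was both clearly lower in Npm1c and higher in Flt3-ITD by the test.

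All 7 sensors and effectors of foreign or misplaced nucleic acid passed as higher in the double mutant, of which Zbp1 was tested only because it was high there and so had to differ. Samhd1, which degrades the nucleotides needed for reverse transcription, measured 4.21 and 3.91 in WT HSPC and 22.6 and 22.1 in the double mutant; its 4 single mutant libraries ran from 3.83 to 4.73. Dhx58, a regulator of RNA sensing, measured 2.39 and 2.57 in WT HSPC, 1.69 and 0.958 in Npm1c cells, 2.62 and 2.51 in Flt3-ITD, and 12.2 in each double mutant library. The RNA sensors Ifih1 (MDA5) and Ddx58 (RIG-I) moved less. Ifih1 went from 3.97 and 3.93 to 7.85 and 7.40, and Ddx58 from 1.05 and 1.08 to 1.36 and 1.47. Eif2ak2, the RNA-activated kinase PKR, measured 12.1 and 11.8 in WT HSPC, 8.78 and 8.61 in Npm1c cells, 9.89 and 9.79 in Flt3-ITD, and 17.8 and 17.6 in the double mutant, so that the 4 groups did not overlap and both single mutants lay below WT. Adar, an RNA-editing enzyme, measured 3.24 and 3.33 in WT HSPC, 2.61 and 2.44 in Npm1c cells, 3.21 and 3.11 in Flt3-ITD, and 6.49 and 6.61 in the double mutant. Zbp1, a sensor that can trigger cell death, lay between 0.166 and 0.509 in the other 6 HSPC libraries and at 3.35 and 3.19 in the double mutant.

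The 5 oligoadenylate synthetase family members, which make the signal that activates RNase L or are related to those that do, all passed as higher in the double mutant, though Oas2 and Oasl2 were tested only because they were high there and so had to differ. Oas1a measured 8.19 and 7.66 in WT HSPC, 6.05 and 3.91 in Npm1c cells, 10.6 and 9.90 in Flt3-ITD, 25.8 in each double mutant library and 38.1 in each neutrophil library. Oas3 measured 1.97 and 1.96 in WT HSPC, 1.02 and 0.703 in Npm1c cells, 2.49 and 2.25 in Flt3-ITD, 8.12 and 7.87 in the double mutant, and 62.3 and 61.2 in neutrophils. For both genes the order of the groups was Npm1c, WT, Flt3-ITD, double mutant and neutrophil, with no overlap. Oas2 did not exceed 0.249 in the other 6 HSPC libraries and measured 1.19 and 1.20 in the double mutant. Oasl1 measured 2.32 and 2.51 in WT HSPC and 4.23 and 4.24 in the double mutant, and Oasl2 0.585 and 0.515 against 3.49 and 3.52.

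The 3 Ifit genes, whose proteins bind foreign RNA, differed in size of change. Ifit3 measured 0.217 and 0.190 in WT HSPC, 0.0928 and 0.155 in Npm1c cells, 0.485 and 0.395 in Flt3-ITD, 4.50 and 4.24 in the double mutant, and 45.3 and 45.1 in neutrophils. Its log2 change in the double mutant was 2.79 ± 0.077; Ifit3 was tested only because it was high there, so this size is a description. Ifit1 measured 1.81 and 1.99 in WT HSPC, 1.18 and 0.652 in Npm1c cells, 2.34 and 2.94 in Flt3-ITD, and 3.75 and 3.40 in the double mutant. Ifit2 measured 4.59 and 4.13 in WT HSPC, 2.87 and 2.96 in Npm1c cells, 4.56 and 4.48 in Flt3-ITD, and 8.16 and 7.94 in the double mutant. Ifit1 and Ifit3 both hold 2 ISRE copies in the stretches printed above, yet the double mutant stood well above Flt3-ITD for Ifit3 and by less for Ifit1, where that difference did not pass (0.38, limma adjusted p = 0.0854). Near-identical copies such as Ifit3b may share reads with Ifit3, and likewise for the Oas1, Ifi27l2, Trim30 and Gbp families, so values within these families are uncertain.

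Among the GTPases, Mx1 changed most. Mx1 (chromosome 16) encodes an antiviral GTPase, and C57BL/6 mice are known to carry a defective copy whose RNA is still made. It measured 0.139 and 0.123 in WT HSPC, 0.0565 and 0.0385 in Npm1c cells, 0.202 and 0.205 in Flt3-ITD, 4.69 and 4.49 in the double mutant, and 0.115 and 0.177 in neutrophils. Its log2 change in the double mutant was 3.01 ± 0.054, a description only, since Mx1 entered the test through that group alone. It was lowest in Npm1c cells, the other group carrying a transgene driven by its promoter. The guanylate-binding protein genes split. Gbp2 measured 2.60 and 2.79 in WT HSPC and 12.9 and 12.3 in the double mutant. Gbp7 measured 8.89 and 8.75 in WT HSPC, 5.58 and 5.64 in Npm1c cells, 10.1 and 9.55 in Flt3-ITD, and 10.1 in each double mutant library, with Npm1c well below the other groups and Flt3-ITD and the double mutant overlapping. Gbp3 measured 2.50 and 2.39 in WT HSPC, 4.75 and 3.61 in Flt3-ITD, and 4.69 and 4.56 in the double mutant, the latter pair again overlapping. Igtp, an immunity-related GTPase gene, was highest in Flt3-ITD at 7.87 and 9.78, against 5.67 in each WT library and 6.77 and 7.47 in the double mutant. The changes of Gbp7 and Igtp in the double mutant, 0.18 and 0.30, turned to -0.16 and -0.04 on the deposited scale. Irgm1 measured 9.48 and 9.59 in WT HSPC, 11.95 and 11.6 in Npm1c cells, 11.8 and 13.6 in Flt3-ITD, and 17.3 and 17.0 in the double mutant, and was the only GTPase here that rose in all 3 mutant groups, though its change in Npm1c was 0.01 on the deposited scale.

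Isg15 (chromosome 4) encodes a ubiquitin-like protein that is attached to other proteins during the response. It measured 3.77 and 3.09 in WT HSPC, 1.72 and 1.25 in Npm1c cells, 3.83 and 4.40 in Flt3-ITD, 23.2 and 20.8 in the double mutant, and 23.1 and 20.7 in neutrophils. The double mutant and neutrophil libraries overlapped, and Npm1c lay below every other library. Usp18, the protease that removes Isg15 and dampens receptor signalling, measured 1.88 and 2.07 in WT HSPC, 2.00 and 1.33 in Npm1c cells, 2.59 and 4.41 in Flt3-ITD, and 11.4 and 11.5 in the double mutant. Its Flt3-ITD replicates differed more from each other than the WT and Npm1c libraries did. Herc6, the ligase for Isg15 in the mouse, went from 1.52 and 1.47 to 2.95 and 2.88. Trim25, a ligase that activates Ddx58, moved from 5.43 and 5.04 to 6.34 and 6.64, and its change of 0.29 turned to -0.05 on the deposited scale.

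Ifi27l2a had the largest change of the members in the double mutant. This small membrane protein gene of the Ifi27 family measured 5.60 and 5.76 in WT HSPC, 3.37 and 2.74 in Npm1c cells, 24.2 and 15.1 in Flt3-ITD, 238 and 246 in the double mutant, and 261 and 254 in neutrophils. No 2 groups overlapped, and it rose by 5.29 ± 0.20 in the double mutant (limma adjusted p = 5.70e-07). Ifitm3, which blocks virus entry, measured 47.2 and 49.4 in WT HSPC, 38.6 and 36.4 in Npm1c cells, 84.0 and 57.2 in Flt3-ITD, 188.5 and 188 in the double mutant, and 571 and 558 in neutrophils. Bst2 (tetherin), which holds budding virus at the cell surface, measured 24.9 and 24.6 in WT HSPC, 25.4 and 20.7 in Npm1c cells, 33.4 and 27.8 in Flt3-ITD, 87.3 and 87.8 in the double mutant, and 12.6 and 12.5 in neutrophils. Rsad2 (viperin), which makes a chain-terminating nucleotide, measured 1.53 and 1.55 in WT HSPC and 7.84 and 7.50 in the double mutant. Lgals3bp, a secreted glycoprotein gene, measured 40.6 and 44.7 in WT HSPC, 46.9 and 45.7 in Npm1c cells, 41.8 and 43.8 in Flt3-ITD, and 55.1 and 53.5 in the double mutant. Its change of 0.35 in the double mutant turned to -0.02 on the deposited scale.

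Cmpk2 did not follow the other members. It measured 19.98 and 20.7 in WT HSPC, 19.6 and 16.8 in Npm1c cells, 20.4 and 21.8 in Flt3-ITD, and 18.4 and 18.6 in the double mutant, with 82.6 and 86.8 in neutrophils. All 4 libraries with Mx1-Cre lay below the 4 HSPC libraries without it for Cmpk2 alone among the members, and for 7.45% of all genes. The reverse, all 4 above, held for Lgals3bp alone, and for 5.44% of all genes.

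**Figure D2:**
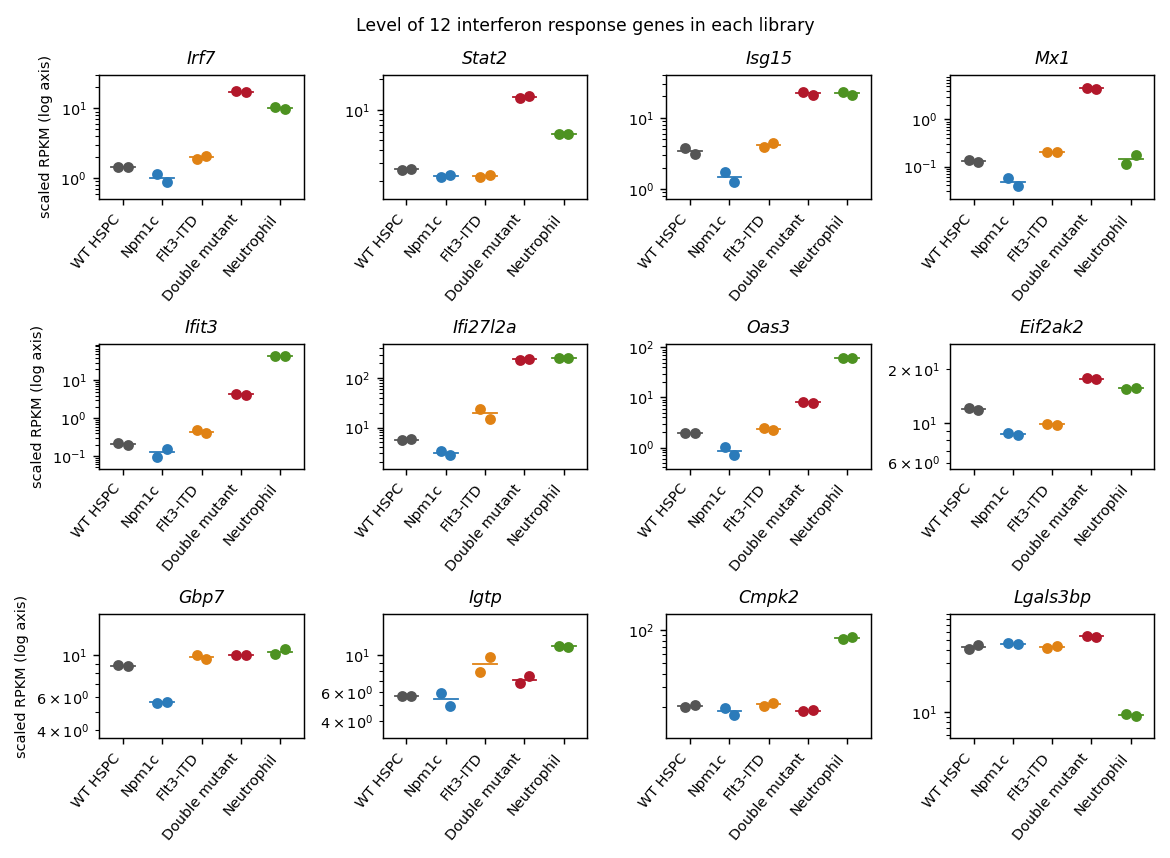
Scaled RPKM (log axis, with a separate range in each panel) of 12 interferon response genes in each library, coloured by group; points are the 2 libraries of a group and bars their mean. Irf7, Stat2 and Mx1 are highest in the double mutant, Ifit3 and Oas3 in neutrophils, Igtp is higher in Flt3-ITD than in the other HSPC groups, and Cmpk2 lies between 16.8 and 21.8 in all HSPC libraries.

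The ADP-ribosylation and ubiquitin partners Parp9, Dtx3l and Parp14 changed by similar amounts. Parp9, which forms a complex with Dtx3l, measured 4.49 and 4.37 in WT HSPC and 11.2 and 10.99 in the double mutant. Dtx3l measured 6.78 and 6.16 in WT HSPC and 17.4 and 17.5 in the double mutant, and Parp14 3.85 and 3.50 against 11.7 and 11.5. Among the remaining members, Ifi44 differed by 2.95 ± 0.17 in the double mutant on the log2 scale, which is a description, as it was tested only because it was high there. It measured 0.314 and 0.328 in WT HSPC, 0.416 and 0.131 in Npm1c cells, 1.13 and 0.869 in Flt3-ITD, and 5.82 and 5.89 in the double mutant. Xaf1, which antagonises an inhibitor of apoptosis, measured 0.662 and 0.706 in WT HSPC, 1.27 and 1.19 in Npm1c cells, 2.45 and 1.89 in Flt3-ITD, and 7.31 and 7.54 in the double mutant. Xaf1 was thus higher than WT in every mutant library. Trim30a measured 8.68 and 9.04 in WT HSPC, 5.94 and 5.29 in Npm1c cells, 14.1 and 11.7 in Flt3-ITD, and 60.5 and 59.9 in the double mutant. Sp100, a nuclear body component, went from 2.94 and 2.74 to 14.3 and 14.2, Ifi35 from 5.61 and 5.88 to 22.3 and 21.9, and Rtp4, a receptor chaperone, from 3.24 and 3.30 to 10.2 and 9.78.

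The double mutant also stood above each single mutant. Against Npm1c, 41 of 43 members rose and 0 fell, while 40.2% of all genes rose and 40.2% fell; the members' median was 1.91. Trim25 (0.08) and Cmpk2 (0.02) did not pass. Against Flt3-ITD, 37 rose and 0 fell, while 39.2% of all genes rose and 38.8% fell, with a members' median of 1.29. The 6 that did not pass were Trim25, Cmpk2, Gbp3, Ifit1, Gbp7 and Igtp; the Igtp value was -0.28. Without the 6 members carried by the double mutant, the counts were 35 and 31 of 37. On the deposited scale 40 of 42 rose and 0 fell against Npm1c (34.4% and 43.0% of all genes). Against Flt3-ITD 35 rose and 2 fell on that scale (28.6% and 48.8%). After quantile normalization 37 rose and 0 fell against Npm1c (30.0% and 54.4%), and 35 rose and 2 fell against Flt3-ITD (29.7% and 52.6%). Ddx58, higher than in Flt3-ITD by 0.21, turned to -0.08 after quantile normalization. Of 8 conventional dendritic cell markers 8 were higher in the double mutant than in either single mutant. Of 12 monocyte and macrophage markers 10 were higher and 1 lower against Npm1c, and 8 higher and 2 lower against Flt3-ITD. Without the markers tested only because the double mutant was high, 6 of 6 dendritic cell markers were higher in both comparisons. Of 7 monocyte and macrophage markers, 5 were then higher and 1 lower against Npm1c, and 3 higher and 2 lower against Flt3-ITD. All 6 tested progenitor markers were lower in both comparisons. The part of these markers in the 2 results was not tested.

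Whether the alleles together did more than the sum of each alone was asked by the interaction, that is, the log2 change in the double mutant less those in the 2 single mutants. It was above 0 and passed for 39 of 43 members, and below 0 for 0, while 37.8% of all genes passed above and 35.1% below. The members' median interaction was 1.39, and 33 of 37 passed without the 6 members carried by the double mutant. Trim25 (-0.13), Cmpk2 (-0.02), Irgm1 (0.13) and Igtp (-0.22) did not pass. For Isg15, the Npm1c change of -0.99 and the Flt3-ITD change of 0.24 were set against 2.52 in the double mutant, an interaction of 3.28 ± 0.19 (limma adjusted p = 9.58e-06). Irf7 gave 3.21 ± 0.13 (limma adjusted p = 1.46e-06). The value for Mx1 was 3.06 ± 0.076, a description only for the reason given above. Xaf1 changed by 0.54 and 1.17 in the single mutants and by 2.74 in the double mutant. On the deposited scale 39 of 42 passed above and 0 below (39.2% and 27.6% of all genes). After quantile normalization 35 passed above and 1 below (29.0% and 48.7%). Every interaction value rests on the same 2 double mutant libraries whose dendritic cell markers stood apart; the part of those markers was not tested.

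**Figure D3:**
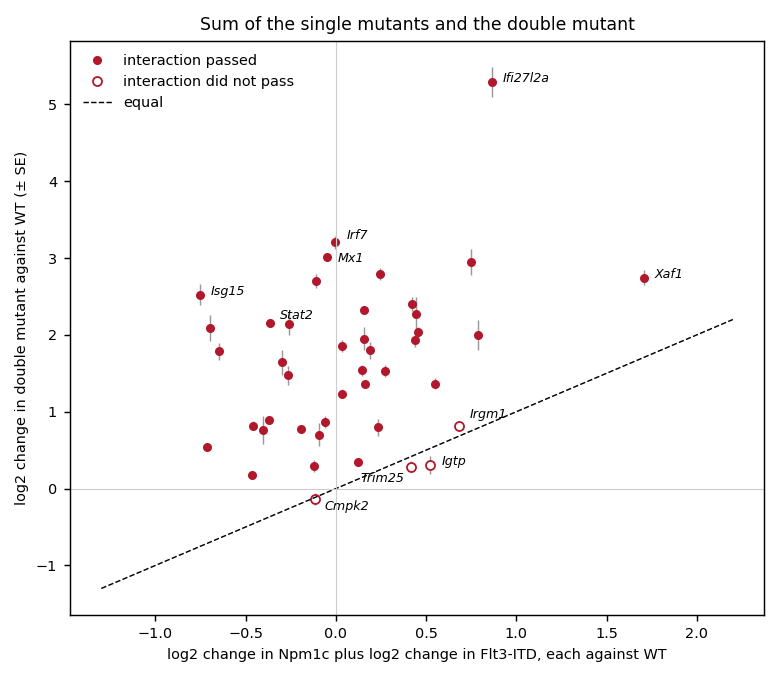
Log2 change of each of the 43 members in the double mutant against WT HSPC (vertical axis, bars are 1 SE) plotted on the sum of its log2 changes in Npm1c and Flt3-ITD (horizontal axis); the dashed line marks equality and open circles mark the 4 members whose interaction did not pass. The 39 filled points lie above the line, Ifi27l2a highest at 5.29, and Trim25, Cmpk2, Irgm1 and Igtp lie near it.

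In Npm1c HSPC the programme stood lower. Of the 43 members, 2 rose and 18 fell against WT HSPC, while 17.9% of all genes rose and 19.8% fell. The members' median was -0.17. Isg15 fell most, at -0.99 ± 0.14 (limma adjusted p = 0.00343), followed by Oas3 at -0.86 ± 0.11 and Ifi27l2a at -0.80 ± 0.20. Ifit1, Rtp4 and Dhx58 fell by 0.78, 0.75 and 0.74. The other 12 that fell included Irf7, Mx1, Gbp7, Eif2ak2 and Trim30a. Xaf1 rose by 0.54 ± 0.098 (limma adjusted p = 0.00763) and Irgm1 by 0.29 ± 0.065 (limma adjusted p = 0.0155), which became 0.01 on the deposited scale. Both Npm1c libraries lay below all 6 other HSPC libraries for 21 of 43 members and for 16.7% of all genes, and above them for 0 members and 16.4% of genes. The 2 Npm1c replicates were not alike: most members were lower in replicate 2 than in replicate 1. Examples are Isg15 (1.72 in replicate 1 and 1.25 in replicate 2), Oas3 (1.02 and 0.703) and Sp100 (2.24 and 1.64). Only Ifit2, Ifit3, Stat2, Rsad2 and Gbp7 were higher in replicate 2.

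On the deposited scale, where the median gene moved by -0.26, 1 of 42 members rose and 31 fell in Npm1c. On that scale 2.49% of all genes rose and 58.1% fell. After quantile normalization 3 members rose and 14 fell (19.3% and 17.8% of all genes). Fewer members fell without either WT replicate, and without Npm1c replicate 2, the library with Y-linked transcripts. A smaller share of all genes fell in these fits too. With 1 replicate left out in turn, the Isg15 change ran from -1.16 to -0.82 and that of Dhx58 from -1.03 to -0.44. Of 12 monocyte and macrophage markers 6 were lower in Npm1c and of 8 conventional dendritic cell markers 4 were lower; their sums were 78.1 to 84.5 and 15.9 to 16.0, against 134 and 24.8 to 25.0 in WT HSPC. Neutrophil markers summed to 111 to 501 against 57.3 to 75.4. The part of these markers in the result was not tested.

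Flt3-ITD HSPC leaned the other way. Of the 43 members 17 rose and 2 fell, while 8.65% of all genes rose and 9.16% fell; the members' median was 0.27. Ifi27l2a rose by 1.67 ± 0.20 (limma adjusted p = 0.00585), Xaf1 by 1.17 ± 0.098 (limma adjusted p = 0.00277) and Ifi44 by 0.86 ± 0.17. Gbp3, Igtp and Oasl2 rose by 0.66, 0.59 and 0.55. By role, 4 of 6 GTPases rose (Gbp2, Gbp3, Igtp and Irgm1), 1 of 7 sensors (Zbp1) and 0 of 4 in the Isg15 system. Eif2ak2 fell by 0.27 ± 0.039 (limma adjusted p = 0.00919) and Stat2 by 0.18 ± 0.049 (limma adjusted p = 0.0467). Both Flt3-ITD libraries lay above all 6 others for Igtp alone, and for 4.14% of all genes.

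These Flt3-ITD calls depended on the WT libraries: without WT replicate 1 or without WT replicate 2 only 1 member rose and 0 fell, with 0.342% or 0.332% of all genes rising. Fewer members were tested and fewer rose without either double mutant replicate, and a smaller share of all genes rose as well. Without the 6 members carried by the double mutant, 12 of 37 rose and 2 fell. On the deposited scale, with the median gene at -0.14, 9 of 42 rose and 2 fell (1.86% and 31.3% of all genes). After quantile normalization 18 rose and 1 fell (7.61% and 10.2%). The Stat2 fall was lost after quantile normalization (limma adjusted p = 0.0823). The Flt3-ITD replicates differed beyond sampling noise (p under 0.05) for 51.2% of genes, against 8.19% to 32.7% in the other groups. Neutrophil markers summed to 311 to 325 and monocyte and macrophage markers to 147.5 to 221.5, against 57.3 to 75.4 and 134 in WT HSPC, and 4 of 11 and 3 of 12 were higher. Their part in the result was not tested.

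Set directly against each other, the single mutants differed in 1 direction. Of the 43 members 0 were higher and 33 lower in Npm1c than in Flt3-ITD, while 7.32% of all genes were higher and 13.1% lower; the members' median was -0.40. Ifi27l2a differed by -2.47 ± 0.20 (limma adjusted p = 0.00144), Rtp4 by -1.24 ± 0.12 (limma adjusted p = 0.00261) and Isg15 by -1.23 ± 0.14 (limma adjusted p = 0.00346). Ifit1, Trim30a and Oas3 differed by -1.17, -1.12 and -1.08. By role, 6 of 7 sensors, 4 of 5 synthetases, 3 of 3 Ifit genes and 5 of 6 GTPases were lower. Stat2 was level, at 0.00. On the deposited scale 35 of 42 were lower and 0 higher (15.01% and 2.484% of all genes). After quantile normalization 29 of 42 were lower and 0 higher (11.38% and 9.781%). Fewer members were lower without Npm1c replicate 2. Without either double mutant replicate fewer members were tested and fewer were lower. A smaller share of all genes was lower in these fits too. With 1 replicate left out in turn, the Ifi27l2a difference ran from -2.801 to -2.137 and that of Isg15 from -1.396 to -1.056. Of 12 monocyte and macrophage markers 0 were higher and 9 lower in Npm1c, and of 8 conventional dendritic cell markers 0 were higher and 5 lower; their part in the result was not tested. The mice with Mx1-Cre were thus the ones with the lower levels in this pair, and which allele or transgene goes with that cannot be told apart.

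**Figure D4:**
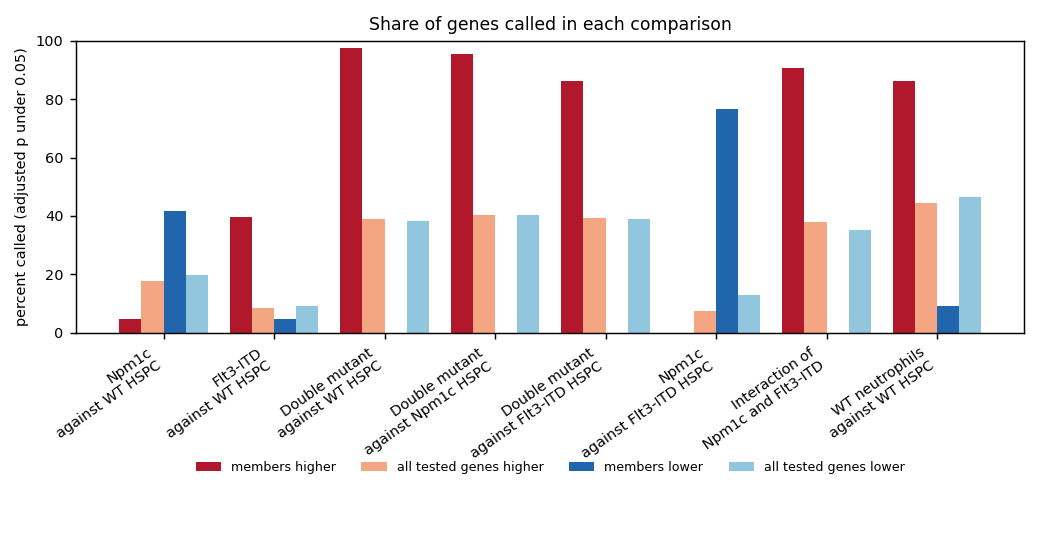
Percent of the 43 members (dark bars) and of all tested genes (light bars) that passed at an adjusted p under 0.05 as higher (red) or lower (blue) in each of the 8 comparisons. Members exceed all genes among the higher calls in the double mutant comparisons, the interaction, Flt3-ITD and neutrophils, and among the lower calls in Npm1c.

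WT neutrophils gave a measure of the programme in a normal mature cell. Of the 43 members 37 were higher and 4 lower than in WT HSPC, while 44.3% of 10563 genes were higher and 46.6% lower; the members' median was 1.79. Without the 6 members carried by the double mutant, 33 of 37 were higher and 3 lower. Ifi27l2a was higher by 5.38 ± 0.18 (limma adjusted p = 1.22e-08) and Oas3 by 4.66 ± 0.099 (limma adjusted p = 1.12e-09). Ifit3 was higher by 6.02 ± 0.069 and Oasl2 by 4.56 ± 0.080. Both sizes are descriptions, since Ifit3 and Oasl2 met the minimum only through the double mutant and neutrophils, where they were high. Rtp4 and Rsad2 were higher by 4.23 and 3.90. Those lower were Lgals3bp at -2.12 ± 0.055 (limma adjusted p = 2.84e-09), Gbp3 at -1.53 ± 0.11 (limma adjusted p = 1.10e-06), Bst2 at -0.95 and Ifi44 at -0.43. Mx1 and Irgm1 did not pass, at 0.03 and 0.01. On the deposited scale, where the median gene moved by -0.70, 28 were higher and 9 lower (28.4% and 62.8% of all genes). Ifi35, Eif2ak2, Ifih1 and Gbp7 there turned from 0.41, 0.37, 0.48 and 0.23 to -0.32, -0.39, -0.23 and -0.51. After quantile normalization, which left Gbp7 at -0.07, 34 were higher and 5 lower (37.8% and 52.8%). The mean level was higher in neutrophils than in the double mutant for 24 members and higher in the double mutant for 19; that pair was not tested. Ifit3 and Oas3 were far higher in neutrophils, while Mx1, Ifi44, Bst2 and Lgals3bp were far higher in the double mutant.

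Promoters with and without an ISRE were set side by side as a description. In the double mutant against WT HSPC the 14 members with a match had a median log2 change of 1.79, from 0.18 (Gbp7) to 2.79 (Ifit3), and the 20 without had 1.13, from -0.14 (Cmpk2) to 3.20 (Irf7). The ranges overlapped almost entirely. In Npm1c the medians were -0.30 and -0.14, in Flt3-ITD 0.39 and 0.14, and in neutrophils 2.36 and 0.96. The comparisons against WT share the same 2 WT libraries.

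Upstream of the members, interferon genes themselves were scarce. Of 17 interferon ligand genes 9 were in the tables and none reached the expression minimum, so there was no test. Ifnb1, the interferon beta gene, was listed at 1.01 and 0.499 scaled RPKM in the double mutant and at 0 in the other 8 libraries. Ifna2, Ifna4 and Ifna5 were likewise listed above 0 in the double mutant alone, at 0.225 and 0.181, 0.258 and 0.334, and 0.153 and 0.328. Ifng measured 0.409 and 0.111 in the double mutant and at most 0.106 elsewhere.

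Of 21 receptors and signal transducers tested, 21 rose and 0 fell in the double mutant, where 38.9% of all genes rose and 38.4% fell. A total of 3 of them were tested only because the double mutant was high; without these, 18 of 18 rose. In Npm1c cells 3 rose and 7 fell of 21 (17.9% and 19.8% of all genes), and in Flt3-ITD 4 rose and 4 fell (8.65% and 9.16%). The interaction passed above 0 for 18 and below for 0, or for 15 of 18 without those genes, against 37.8% and 35.1% of all genes. Ifnar1 measured 3.98 and 4.03 in WT HSPC, 3.68 and 3.70 in Npm1c cells, 4.45 and 4.07 in Flt3-ITD, and 8.29 and 8.36 in the double mutant. Irf8, a transcription factor needed for dendritic cell and monocyte development, measured 12.6 and 12.9 in WT HSPC, 7.01 and 6.17 in Npm1c cells, 19.8 and 16.1 in Flt3-ITD, 114.5 and 115 in the double mutant, and 2.57 and 2.63 in neutrophils. Unlike most members, it was lower in neutrophils than in WT HSPC. Irf5, a factor downstream of Toll-like receptors, measured 1.57 and 1.85 in WT HSPC and 56.5 and 54.5 in the double mutant. Socs1, which inhibits the receptor's kinases, measured 0.620 and 0.585 in WT HSPC and 7.18 and 5.92 in the double mutant.

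Of 17 tested nucleic acid sensing genes outside the members, 11 rose and 5 fell in the double mutant (38.9% and 38.4% of all genes). Without those tested only because the double mutant was high, 8 rose and 5 fell of 14. In Npm1c cells 1 rose and 9 fell of the 17 (17.9% and 19.8% of all genes), and in Flt3-ITD 1 rose and 0 fell (8.65% and 9.16%). Tlr3, the endosomal sensor of double-stranded RNA, which is also on the next list and was tested only through the double mutant, measured 0.0783 and 0.0589 in WT HSPC, at most 0.112 in the single mutants, 50.6 and 48.1 in the double mutant, and 0.0516 and 0.0487 in neutrophils. Tlr9, the sensor of unmethylated DNA, measured 0.621 and 0.525 in WT HSPC, 18.4 and 17.9 in the double mutant, and 0.417 and 0.544 in neutrophils. A further list held 55 interferon-inducible genes. Of 46 tested, 39 rose and 2 fell in the double mutant, or 26 and 2 of 33 without those tested only because it was high. In Npm1c cells 3 of the 46 rose and 18 fell, and in Flt3-ITD 12 rose and 3 fell, to be read against the same shares of all genes. Slfn8 fell in Npm1c by 0.61 and Iigp1, an immunity-related GTPase gene, rose in Flt3-ITD by 1.09. Iigp1 measured 0.496 and 0.534 in WT HSPC, 1.53 and 1.79 in Flt3-ITD and 0.875 and 0.842 in the double mutant, so that, like Igtp, it was highest in Flt3-ITD among the HSPC groups.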

How the data were processed

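Directional libraries were made from rRNA-depleted total RNA, per the labels' protocols. STAR 2.4.0, HTSeq, DiffBind and mm10 are named per the submitters' processing notes, with no roles; the sources used here do not give the annotation, the strand setting or the treatment of multiply mapping reads. Deposited values were RPKM for 16771 genes per library. Because each RPKM is a whole multiple of what 1 read is worth, whole reads were recovered for 16654 of 16655 genes above 0 in at least 2 libraries (tolerance 0.02 reads) and used only for depth and for comparing replicates, none of which were copies of each other.

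RPKM values were divided by median-of-ratios factors (6490 genes at 1 RPKM or more in every library), since reads outside the listed genes shift the deposited scale. Tests used limma 3.58.1 (R 4.3.3) on log2(scaled RPKM + 0.5), which understates changes of low genes, with a variance trend and Benjamini-Hochberg adjustment at 0.05 over all genes with at least 1 scaled RPKM in at least 2 fitted libraries. The 7 HSPC comparisons were fitted on 8 libraries (9967 genes), and the neutrophil comparison on 10 (10563 genes). The script was tested on simulated data. P-values rest on 1 estimate of the spread per gene, shared by all groups fitted, each with 2 replicates. The wider spread of the Flt3-ITD replicates is thus averaged with that of the other groups. Alternatives were the deposited scale, quantile normalization, a pseudocount of 0.1, no filter, the replicate number as a block and leaving out each replicate; a Y-linked term and counts without members or list genes that met the minimum only through the double mutant were added after the data were seen. The members and lists were chosen with earlier results of these data known. Full statistics were given, per comparison, to up to 6 members with the largest rise and 6 with the largest fall among those that passed, and levels to any member; from other lists up to 4 genes per comparison with the smallest adjusted p were named, and genes whose role a sentence needed. Figures were drawn with matplotlib 3.10.9. The result of 1 signalling gene is not reported here.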

Additional observations from a re-analysis of the deposited data

Results flagged for a closer look

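The effect of both alleles together differed from the sum of their separate effects, by a test of that difference, for 39 of 43 members. Without the 6 members carried by the double mutant, it did so for 33 of 37. The 6 largest values are given here. The excess in the double mutant, on the log2 scale, was 4.43 for Ifi27l2a (limma adjusted p = 1.28e-05), 3.28 for Isg15 (limma adjusted p = 9.58e-06) and 3.21 for Irf7 (limma adjusted p = 1.46e-06). It was 2.81 for Trim30a (limma adjusted p = 2.81e-06) and 2.79 for Dhx58 (limma adjusted p = 4.98e-05). For Mx1 it was 3.06, but Mx1 was tested only because the double mutant was high, so that its test was fixed and the size is a description. Both double mutant libraries lay above the other 6 HSPC libraries for all 6 genes, and for 38.8% of all genes. The 6 were chosen by the size of this excess, so their lack of overlap is no separate evidence. The interaction passed above 0 for 37.8% of all genes, and the part of the dendritic cell markers of the double mutant libraries was not tested.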

How the results depend on the processing

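Of 56 named values with a test, 43 kept their direction and their side of the threshold under every alternative run and 0 reversed; 41 of the alternative values of the other 13 no longer passed. The 56 were the largest changes that passed. Some belong to members tested only because the double mutant was high, so that their stability is no separate evidence. Smaller changes that passed, named above, did reverse on another scale, such as Eif2ak2 in neutrophils from 0.37 to -0.39 as deposited. With values as deposited, members higher and lower numbered 1 and 31 in Npm1c, 9 higher in Flt3-ITD, 1 lower in the double mutant against WT, 2 lower against Flt3-ITD, and 9 lower in neutrophils. Quantile normalization gave 1 lower each in Flt3-ITD, in the double mutant against WT and for the interaction, and 2 lower for the double mutant against Flt3-ITD. The shares of all genes on these scales are given with each comparison above. With no filter Flt3-ITD had 11 higher and 1 lower. With the added Y-linked term, 1 was lower in Flt3-ITD, in the double mutant against WT and for the interaction, and 2 against Flt3-ITD. Replicate numbers did not pair the samples: correlations of same-numbered deviations ran from -0.118 to 0.0885, and the replicate block left 1 lower in Flt3-ITD and changed no other count of members by more than 1.5 times.

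Leaving out 1 replicate in turn gave, in Npm1c against WT, 0 to 3 higher and 8 to 21 lower, and in Flt3-ITD against WT 1 to 20 higher and 0 to 2 lower. The double mutant against WT gave 0 to 1 lower, against Flt3-ITD 0 to 2 lower, and the interaction 0 to 2 lower. Npm1c against Flt3-ITD gave 17 to 33 lower. A lone library left in a group was taken to vary like the others. The members' recovered counts started at 7 reads, and 2 libraries per group limit the precision.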
